A study of Mus musculus with 12 samples.

Results

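Troponin transcripts were followed in mouse C2C12 cells, an established myoblast line that stops dividing and forms contractile myotubes when serum is withdrawn. The 8 genes examined encode the 3 troponin subunits. They were taken by gene symbol: Tnnt1, Tnnt2 and Tnnt3 for troponin T, Tnni1, Tnni2 and Tnni3 for troponin I, and Tnnc1 and Tnnc2 for troponin C. Of these, 6 had a named probe on the array, with 1 probe each, and all 6 were among the 10346 genes tested. No probe was named for the cardiac genes Tnnt2 and Tnni3, which were not analysed here.

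The arrays came as 6 groups of 2. Wild-type C2C12 cells were sampled in growth medium (GM) and in differentiation medium (DM). The other 4 groups were in differentiation medium after an siRNA: siScramble, a scrambled sequence that serves as their control, or a pool against BRG1 (siBRG1), BAF60b (siBAF60b) or BAF60c (siBAF60c). BRG1, encoded by Smarca4, is the ATPase that drives SWI/SNF chromatin remodelling complexes, and BAF60b and BAF60c, encoded by Smarcd2 and Smarcd3, are alternative subunits of those complexes. Per the labels, siRNA was given to growing cells in 15% FBS, the medium was changed to ITS 36 h later, and RNA was collected after another 18 h, with 500 ng used for labelling. The GM and DM samples carried the transfection entry "control", and the labels leave unsaid if a mock transfection was done. They also do not state that the 2 replicates of a group were grown as separate cultures, so the p-values below reflect no more than the spread of these samples, possibly a technical one.

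Troponin sits on the thin filament of the sarcomere and makes contraction depend on calcium. Troponin C binds calcium, troponin I keeps actin and myosin apart until calcium is bound, and troponin T anchors the complex to tropomyosin. Each subunit has its own gene for slow and for fast fibres, and the heart has its own troponin T and troponin I but shares the slow troponin C, Tnnc1. Developing skeletal muscle is known to switch on slow and cardiac forms along with fast ones.

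Of the 8 genes, 6 lie in close pairs in the mouse genome, while Tnnc1 on chromosome 14 and Tnnc2 on chromosome 2 lie apart from them. In the RefSeq annotation of GRCm38.p6, Tnni3 stood next to Tnnt1 on chromosome 7 with 0 genes between them. Tnni1 and Tnnt2 on chromosome 1 had 1 gene between them (Lad1), and Tnni2 and Tnnt3 on chromosome 7 had 2 (Lsp1 and Prr33). Thus the slow troponin T gene paired with the cardiac troponin I gene, the slow troponin I with the cardiac troponin T, and the fast troponin I with the fast troponin T.

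Promoter windows were found for 6 of the 8 genes in the RefSeq table for the same build. The 4 that belong to measured genes are shown here, and the other measured genes, Tnnt3 and Tnni2, had no window. Each line gives the 250 bases before the annotated start site, 5′ to 3′ on the gene's strand, with E-boxes in capitals. The E-box, written CANNTG, is the sequence bound by MyoD and its relatives, the transcription factors of muscle commitment.
Tnnt1: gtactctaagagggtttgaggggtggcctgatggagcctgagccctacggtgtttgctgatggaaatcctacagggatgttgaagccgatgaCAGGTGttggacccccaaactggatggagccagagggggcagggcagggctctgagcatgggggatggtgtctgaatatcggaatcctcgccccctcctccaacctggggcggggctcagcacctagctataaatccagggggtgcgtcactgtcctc
Tnni1: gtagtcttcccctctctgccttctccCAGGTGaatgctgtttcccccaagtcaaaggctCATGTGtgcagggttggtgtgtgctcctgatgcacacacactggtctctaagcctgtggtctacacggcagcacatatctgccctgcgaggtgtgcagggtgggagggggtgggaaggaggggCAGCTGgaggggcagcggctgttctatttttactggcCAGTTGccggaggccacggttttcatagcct
Tnnc1: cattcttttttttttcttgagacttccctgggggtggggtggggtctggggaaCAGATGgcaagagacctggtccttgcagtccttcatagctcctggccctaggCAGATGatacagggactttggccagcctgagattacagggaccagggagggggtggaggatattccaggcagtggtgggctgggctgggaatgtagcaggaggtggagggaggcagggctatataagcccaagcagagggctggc
Tnnc2: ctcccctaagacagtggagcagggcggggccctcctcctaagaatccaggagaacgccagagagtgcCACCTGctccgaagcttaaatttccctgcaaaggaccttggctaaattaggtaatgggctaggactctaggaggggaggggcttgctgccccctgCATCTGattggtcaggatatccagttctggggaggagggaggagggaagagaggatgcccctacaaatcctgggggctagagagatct
The windows were chr7:4515976-4516225 on the minus strand for Tnnt1, chr1:135799171-135799420 on the plus strand for Tnni1 (the first of 2 annotated starts), chr14:31208062-31208311 on the plus strand for Tnnc1 and chr2:164779735-164779984 on the minus strand for Tnnc2. Over the whole 300-base table entry, which also takes in 50 bases after the start, the E-box was present 2 times for Tnnt1 (at -158 and at +25), 4 times for Tnni1, 2 times for Tnnc1 and 2 times for Tnnc2. E-boxes are common: 72.3% of the 32851 promoters in the table held at least 1. The form CAGCTG, which is contained in CANNTG, was present in 16.3% of all promoters and, of the 4 shown, in Tnni1 alone, at -68. Neither the MEF2 motif (3.19% of all promoters) nor the CArG box (1.63%) was matched in the entry of any of the 6 genes, on either strand. A match in these windows is a description of letters, and binding was not measured.

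Before the troponins, the siRNA targets were read. Smarca4 stood at 7.77 and 7.20 (log2 normalized intensity, replicates 1 and 2) in siScramble and at 6.77 and 6.38 in siBRG1. Smarcd2 stood at 9.83 and 9.71 in siScramble and at 8.10 and 8.34 in siBAF60b, and Smarcd3 at 9.10 and 8.51 in siScramble and at 8.18 and 7.56 in siBAF60c. The arrays did not overlap for any of the 3 targets, with mean levels of 53.0%, 34.1% and 52.3% of siScramble, but no difference passed the test (adjusted p = 0.515, 0.679 and 0.858, limma over all genes). The arrays carried a detected signal for 28.1% to 34.0% of the probes. Replicates correlated at 0.979 to 0.988 across genes, except for the DM pair at 0.945, where 1836 genes differed by more than 1 log2 unit, so results that use DM are also given with either DM array left out. The samples were spread over 3 BeadChips (the slides that hold the arrays), and siScramble shared BeadChip 1 with siBRG1, BeadChips 1 and 2 with siBAF60b and siBAF60c, and BeadChip 2 with GM and DM. Of the 7 skeletal muscle markers, Myod1, Des, Acta1 and Chrna1 were detected on all 12 arrays and Myf5 on 2. The 6 cardiac markers with a named probe, Nkx2-5, Tbx5, Tbx20, Myh6, Nppa and Mybpc3, were detected on 1 to 4 arrays each. Adipoq, Adgre1 and Pecam1, which mark fat, macrophages and endothelium, were detected on none. Of their other markers, Lep was detected on 11 arrays, Csf1r on 10, Kdr on 5 and Cdh5 on 1.

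All 6 measured troponin genes were lowest in growth medium and higher in every differentiating culture. Tnnt1, the slow skeletal troponin T, was already well above background in GM at 10.70 and 10.94, and stood at 14.02 and 14.85 in DM. In the transfected cultures Tnnt1 was 13.13 and 12.86 with siScramble, 12.24 and 12.23 with siBRG1, 13.09 and 12.81 with siBAF60b, and 12.79 and 11.84 with siBAF60c. Both DM arrays thus lay above every other array for this gene, and both GM arrays below. Tnnt3, the fast troponin T, read 5.83 and 5.16 in GM, where only replicate 1 was detected, and 11.06 and 11.25 in DM. It read 10.66 and 10.17 with siScramble, 9.18 and 8.96 with siBRG1, 10.19 and 9.74 with siBAF60b, and 10.18 and 9.07 with siBAF60c. DM again lay above every transfected array, and the siBRG1 arrays lay below both siScramble arrays.

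Troponin I, the inhibitory subunit, followed the same pattern. Tnni1, its slow form, was not detected on either GM array (4.91 and 5.09). It reached 10.37 and 10.13 in DM, 9.87 and 8.76 with siScramble, 8.47 and 8.03 with siBRG1, 9.38 and 8.69 with siBAF60b, and 9.39 and 7.51 with siBAF60c. The siBAF60c arrays were the most unequal pair for this gene, 1.88 apart, and spanned both siBRG1 arrays. Tnni2, the fast form, was detected on all 12 arrays, at 7.57 and 7.06 in GM and 12.26 and 11.62 in DM. It read 12.15 and 11.44 with siScramble, 10.81 and 10.17 with siBRG1, 11.74 and 11.14 with siBAF60b, and 11.59 and 10.76 with siBAF60c. Here DM and siScramble overlapped, and siBRG1 stayed below both.

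Troponin C, the calcium sensor, was read in the same way. Tnnc1, the slow and cardiac form, was 10.32 and 9.99 in GM and 14.21 and 14.14 in DM. It was 13.24 and 12.37 with siScramble, 12.72 and 12.01 with siBRG1, 12.97 and 12.52 with siBAF60b, and 13.11 and 11.98 with siBAF60c, so that the 4 transfected groups overlapped one another and none reached DM. Tnnc2, the fast form, was 8.02 and 7.58 in GM and 13.40 and 12.58 in DM. It was 13.48 and 13.05 with siScramble, 12.33 and 11.95 with siBRG1, 13.42 and 12.97 with siBAF60b, and 13.07 and 11.44 with siBAF60c. For this gene siScramble and siBAF60b had the highest means and overlapped DM.

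**Figure D1:**
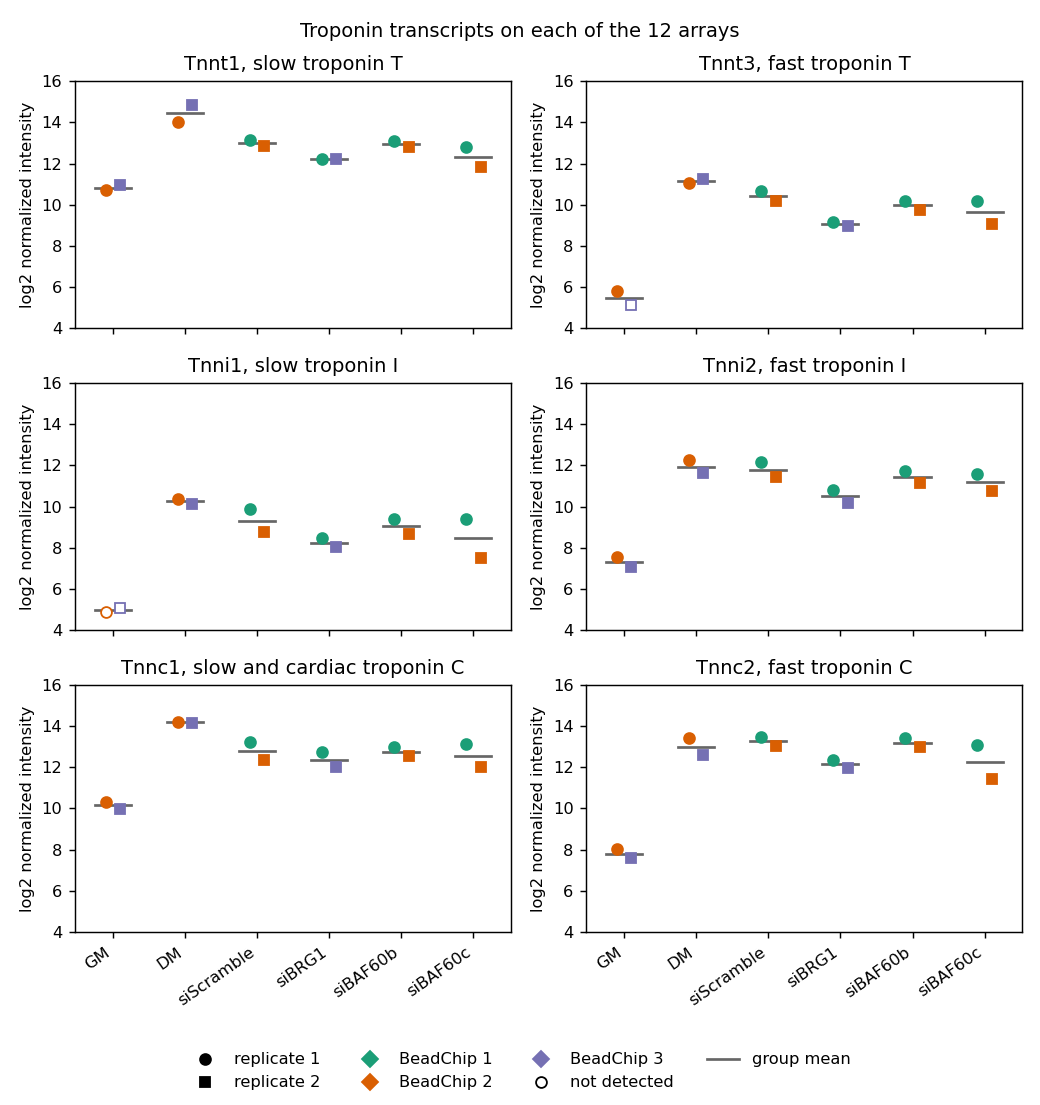
Log2 normalized intensity (vertical axis) of the 6 measured troponin genes on each of the 12 arrays, by group (horizontal axis). Circles are replicate 1, squares replicate 2, colours the BeadChip, open symbols arrays on which the probe was not detected, and lines the group means. GM is lowest in every panel, and Tnni1 in GM, at 4.91 and 5.09, is the gene with 2 open symbols.

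In the order of group means, GM came last for 6 of 6 genes and siBRG1 next to last for 6 of 6, and these 2 groups did not overlap for any of the 6, where 28% of all genes were higher in siBRG1 without overlap. DM came first for 5 of the 6, Tnnc2 being the exception. The share of all genes with this order of groups was not computed. The place of siBRG1 below siBAF60c, the group next above it, was not stable. Their arrays overlapped for every gene, and median scaling put siBAF60c below siBRG1 for Tnnt1, Tnni1, Tnnc1 and Tnnc2. Leaving out siBAF60c replicate 1 did so for these genes and for Tnnt3. The middle of the order was loose as well. From the second to the fifth position, neighbouring groups overlapped for every gene apart from Tnnt1, where siBAF60b and siBAF60c were separate by 0.63 in their means.

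The first question was how far differentiation raised each form. All 6 genes rose from GM to DM in the limma fit, with adjusted p-values from 2.71e-07 to 7.58e-06, while 10.5% of the 10346 genes were called higher. The fast troponin T, Tnnt3, rose by 5.66 log2 units (SE 0.37), or 50.5-fold, with 1 of its 2 GM arrays detected. Fast troponin C, Tnnc2, rose by 5.19 (SE 0.45), or 36.6-fold, and fast troponin I, Tnni2, by 4.63 (SE 0.39), or 24.7-fold. Because Tnni1 was not above background in GM its rise is given as a bound, at least 31.5-fold (adjusted p = 5.62e-06). That bound holds for the background correction with an offset of 16 and not for other settings. The slow troponin C, Tnnc1, rose by 4.02 (SE 0.39), or 16.2-fold, and the slow troponin T, Tnnt1, by 3.62 (SE 0.35), or 12.3-fold. The median over the 6 genes was 4.91, or 4.80 with Tnni1 at its bound, beside 0.07 over all genes. The sizes depended on the background correction for the genes that were dim in GM. Without it the rises were 14.0-fold for Tnnt3, 8.74-fold for Tnni1, 14.1-fold for Tnni2 and 23.6-fold for Tnnc2, and still 14.7-fold for Tnnc1 and 11.5-fold for Tnnt1. The authors' processed values gave 14.6-fold for Tnnt3 and 9.24-fold for Tnni1, and an offset of 50 gave 29.0-fold and 19.0-fold. All 6 calls held in each case, but the order of the genes by the size of their rise did not. Median scaling, which moved the median of all genes to -0.48, gave 6.45-fold for Tnnt1 to 32.8-fold for Tnnt3, again with 6 of 6 called. The rises were as large within each slide that held both media, at 3.32 to 5.46 on BeadChip 2 and 3.91 to 6.08 on BeadChip 3. With either DM array left out all 6 calls held, and the smallest rise was then 3.20, for Tnnt1 without DM replicate 2.

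The same 6 genes also rose in each transfected group against the same 2 GM arrays, so these comparisons share their control. In siScramble the fitted rises were 5.46 for Tnnc2, 4.92 for Tnnt3, 4.48 for Tnni2, 2.65 for Tnnc1 and 2.17 for Tnnt1, and at least 16.5-fold for Tnni1, with 6.3% of all genes called higher. In siBRG1, where 4.38% of genes were called higher, they were 4.34 for Tnnc2, 3.58 for Tnnt3, 3.18 for Tnni2, 2.21 for Tnnc1 and 1.41 for Tnnt1, and at least 7.86-fold for Tnni1. In siBAF60b, beside 5.45% of all genes, they were 5.39 for Tnnc2, 4.47 for Tnnt3, 4.13 for Tnni2, 2.59 for Tnnc1 and 2.13 for Tnnt1, with Tnni1 at least 13.6-fold higher. In siBAF60c, beside 5.69% of all genes, they were 4.46 for Tnnc2, 4.13 for Tnnt3, 3.86 for Tnni2, 2.39 for Tnnc1 and 1.49 for Tnnt1, with Tnni1 at least 9.06-fold higher. Tnni1 bounds are again on the background-corrected scale. Without that correction Tnnt3 was 8.72-fold above GM in siScramble, 3.89-fold in siBRG1, 6.59-fold in siBAF60b and 5.40-fold in siBAF60c, and Tnni1 was 5.02-, 2.81-, 4.27- and 3.23-fold above GM in the same groups. With the correction, every one of these differences passed the test, so all 6 troponin transcripts rose in each of the 3 knockdowns. The weakest were those of Tnnt1 in siBRG1 (adjusted p = 0.0216) and in siBAF60c (adjusted p = 0.0123). The Tnnt1 call in siBRG1 was lost when any 1 of its 4 arrays was left out (adjusted p = 0.0929 to 0.17), and the call in siBAF60c without either GM array or without siBAF60c replicate 1 (adjusted p = 0.059 to 0.182). The Tnnc1 call in siBRG1 was lost without siBRG1 replicate 1 (1.86, adjusted p = 0.0576). With median scaling Tnnt1 lost its call in siScramble, siBRG1 and siBAF60c and Tnnc1 in siBRG1 and siBAF60c (adjusted p = 0.0522 to 0.365), and without background correction Tnni1 lost its call in siBRG1 (adjusted p = 0.051). In bulk cultures a smaller share of differentiated cells and less troponin RNA in each cell cannot be told apart.

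**Figure D2:**
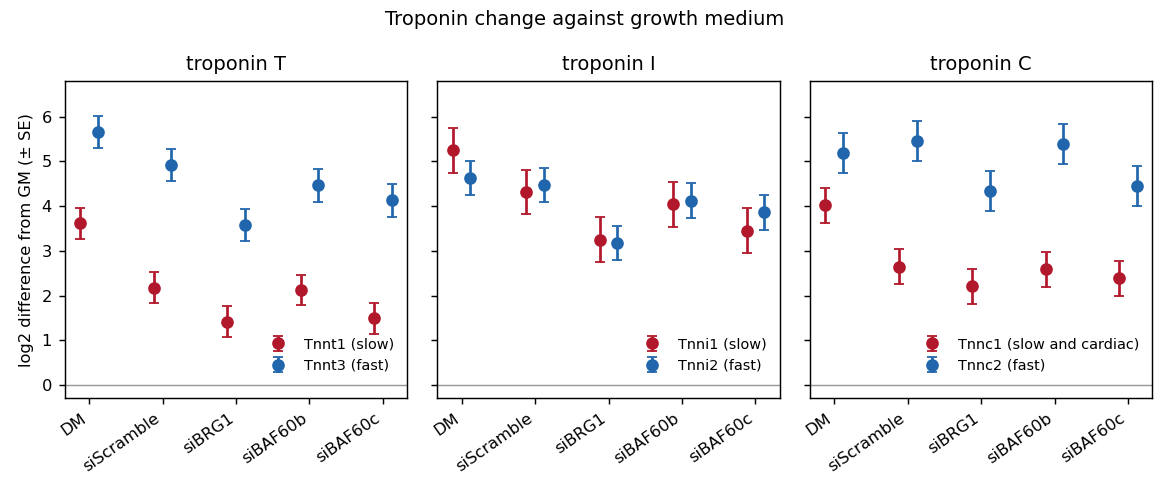
Fitted log2 difference from GM (vertical axis) with its standard error, for the slow (red) and fast (blue) form of each subunit in the 5 differentiating groups (horizontal axis). For troponin T and troponin C the fast form lies above the slow form in all 5 groups. The Tnni1 values rest on GM arrays where it was not detected and are fitted values, not bounds.

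Slow and fast forms were then compared within each subunit, as the difference between their log2 values on the same array, set to 0 at the GM mean. This cancels a change that has the same log2 size in both probes. For a probe near background, as Tnnt3 and Tnni1 in GM, that size depends on the background correction. For troponin T, Tnnt3 minus Tnnt1 was 0.46 and -0.46 on the GM arrays, 2.36 and 1.72 in DM, and 2.86 and 2.64 in siScramble. The fast form therefore gained on the slow form by 2.04 in DM and by 2.75 in siScramble, with no overlap with GM, although 1 of the 2 GM arrays did not detect Tnnt3. Without background correction the gain was 0.29 in DM, where the arrays overlapped those of GM, and 1.03 in siScramble, where they did not. The authors' processed values gave 0.30 and 1.07, and an offset of 50 gave 1.27 and 1.99. For troponin C, Tnnc2 minus Tnnc1 was 0.05 and -0.05 in GM, 1.55 and 0.80 in DM, and 2.60 and 3.04 in siScramble. Here the gain was 1.18 in DM and 2.82 in siScramble, and DM and siScramble did not overlap (1.64 apart). Without background correction these were 0.69, 2.31 and 1.62, with no overlap. For troponin I, Tnni2 minus Tnni1 was 0.35 and -0.35 in GM, -0.43 and -0.82 in DM, and -0.04 and 0.36 in siScramble. Its change from GM, -0.62 in DM and 0.16 in siScramble, rests on a Tnni1 level in GM that is only a bound. Without background correction it was 0.69 and 1.35, with no overlap with GM. The difference of 0.78 between siScramble and DM does not use GM and was 0.66 without that correction. With DM replicate 1 left out, the difference between siScramble and DM was 1.03 for troponin T, 2.01 for troponin C and 0.98 for troponin I, and with DM replicate 2 left out it was 0.38, 1.27 and 0.59. The smallest p that an exact two-sided permutation test of 2 against 2 arrays can give is 0.333, and each of the non-overlapping differences named here reached it, so none could pass a threshold.

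The fast minus slow difference was also compared between each knockdown and siScramble. For troponin T it was lower than siScramble by 0.58 in siBRG1 and by 0.40 in siBAF60b, without overlap in either, and by 0.11 in siBAF60c, with overlap. For troponin C it was lower by 0.68 in siBRG1 and by 0.75 in siBAF60c, without overlap, and the difference was -0.01 in siBAF60b. For troponin I the groups overlapped in all 3 knockdowns, with differences of -0.23, -0.08 and 0.25 in siBRG1, siBAF60b and siBAF60c. Without background correction the siBRG1 difference was -0.39, without overlap. Where arrays did not overlap, the exact permutation p was again 0.333.

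**Figure D3:**
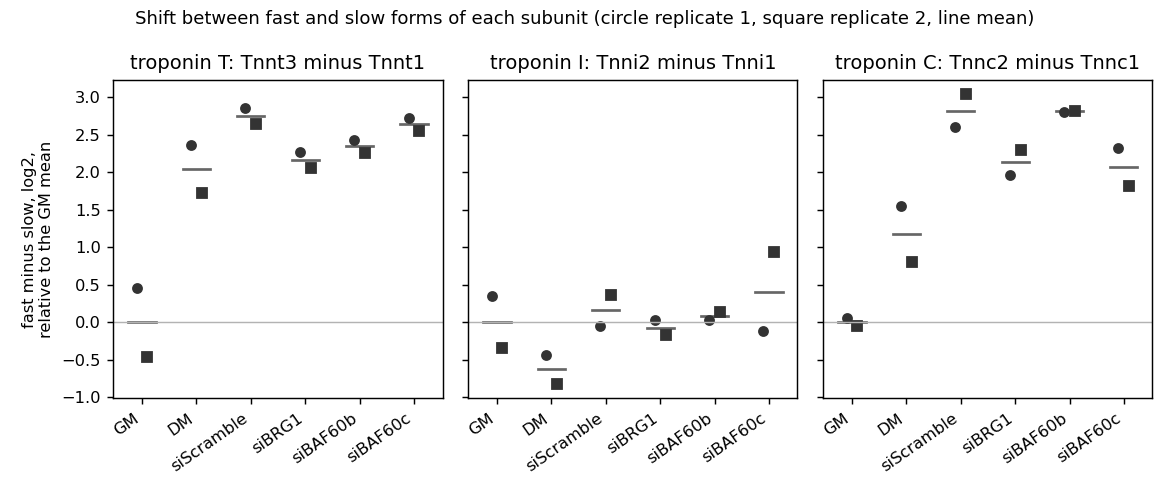
Fast minus slow log2 value of each subunit on each array, relative to its GM mean (vertical axis), by group (horizontal axis); circles are replicate 1, squares replicate 2 and lines means. In troponin T and troponin C all 5 differentiating groups lie above both GM arrays on this background-corrected scale (without the correction DM and GM overlap in troponin T). In troponin I the values stay between -0.82 and 0.93 on this scale. Without the correction all 5 groups lie above GM in troponin I too, without overlap, by 0.69 in DM to 1.40 in siBAF60c.

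Levels in siScramble were next set against DM, since both are differentiating cultures without a knockdown. Tnnt1 was 1.44 lower (SE 0.35) in siScramble, 36.8% of its DM level, and passed the test (adjusted p = 0.0366), in a comparison where 1.74% of all genes were called lower. Tnnc1, the other slow form that GM cultures already made, was 1.37 lower (SE 0.39, adjusted p = 0.0751) and did not pass. It did pass with the BeadChip as a fixed block (-1.81, adjusted p = 0.00719) or as a random block (-1.48, adjusted p = 0.032), and with the replicate number as a block (-1.37, adjusted p = 0.0201), and Tnnt1 passed in these fits too. The differences were -0.93 for Tnni1, -0.74 for Tnnt3, -0.15 for Tnni2 and 0.27 for Tnnc2. On BeadChip 2, the slide that held arrays of both groups, all 6 genes were lower in siScramble, from -1.84 for Tnnc1 to -0.35 for Tnnc2. The Tnnt1 call rested on single arrays: its difference was -1.03 without DM replicate 2 (adjusted p = 0.213), -1.58 without siScramble replicate 1 (adjusted p = 0.119) and -1.31 without siScramble replicate 2 (adjusted p = 0.196), and -1.86 without DM replicate 1 (adjusted p = 0.00384). It was also lost with median scaling (adjusted p = 0.433), with array weights (0.226) and with only these 2 groups in the fit (0.272).

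The main question of the study was what knockdown of each SWI/SNF subunit does to differentiating cells. With siBRG1 all 6 troponin genes had lower means than with siScramble, beside 48.3% of all genes. The 6 genes were correlated over the arrays (0.794 to 0.985), so they are not 6 separate observations. Of the 6, 0 passed the test, where 0.174% of all genes were called lower. By the unadjusted p, 4 of the 6 were under 0.05, beside 4.03% of all genes lower at that level. Tnnt3 had the largest difference, -1.34 (SE 0.37, adjusted p = 0.207), which left 39.5% of its siScramble level. Tnni2 differed by -1.30 (SE 0.39, adjusted p = 0.264), Tnnc2 by -1.12 (SE 0.45, adjusted p = 0.495) and Tnni1 by -1.07 (SE 0.50, adjusted p = 0.622). The smallest differences were in Tnnt1, at -0.76 (SE 0.35, adjusted p = 0.593), and Tnnc1, at -0.44 (SE 0.39, adjusted p = 0.889), which stayed at 73.9% of siScramble. Both siBRG1 arrays lay below both siScramble arrays for 5 of the 6 genes, Tnnc1 being the exception, while 20.1% of all genes were separated this way. On BeadChip 1, the one slide with both groups, the 6 differences ran from -0.52 to -1.47. Without siScramble replicate 1 the differences of Tnni1 and Tnnc1 were -0.51 and -0.0019. With the replicate number as a block, 1 of the 6 passed: Tnni2, at the same -1.30 (adjusted p = 0.0346). Replicate 1 read higher than replicate 2 in all 24 values of the 6 genes in the 4 transfected groups, whose replicate 1 arrays shared BeadChip 1. The median difference was -1.09 for the 6 genes and 0.01 for all genes. With median scaling the median of all genes was 0.32, and the differences were -0.91 for Tnnt3, -0.89 for Tnni2, -0.74 for Tnnc2, -0.64 for Tnni1, -0.41 for Tnnt1 and -0.09 for Tnnc1.

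The summed level of the skeletal muscle markers moved alongside, but not every marker did. A sum of linear values is carried by the brightest probes. From GM to DM, Myod1 differed by -0.48 and Myf5 by 0.14, beside 4.41 for Acta1 and 6.67 for Myog. In siBRG1 against siScramble the same genes differed by -0.49, 0.14, -1.37 and -1.12. The summed linear intensity of the 7 markers was 28596 to 29710 on the siScramble arrays and 16089 to 16479 on the siBRG1 arrays. It was 21801 to 24082 with siBAF60b, 20966 to 25759 with siBAF60c, 33529 to 54729 in DM and 9695 to 10984 in GM. The part of this marker change in the troponin differences was not tested.

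With siBAF60b the arrays overlapped those of siScramble for every measured troponin gene. The differences from siScramble ran from -0.45 for Tnnt3 to -0.05 for Tnnt1, 0 of 6 passed (0.00967% of all genes were called lower), and 0 of 6 had an unadjusted p under 0.05 (2.01% of all genes were lower at that level). For 0 of the 6 were the siBAF60b arrays all below the siScramble arrays, beside 16.5% of all genes. The 95% intervals still allowed a change: for Tnnt3 from -1.23 to 0.34, and for Tnnc2 from -1.02 to 0.88. Median scaling turned the sign for Tnnt1, Tnnc1 and Tnnc2, so no direction can be read.

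With siBAF60c all 6 means were lower than with siScramble, and 0 passed the limma test, beside 0% of all genes called lower. Unadjusted, 2 of the 6 had p under 0.05, beside 2.51% of all genes lower at that level. Tnnc2 had the largest difference at -1.01 (SE 0.45, interval -1.96 to -0.05), followed by Tnni1 at -0.86, Tnnt3 at -0.79, Tnnt1 at -0.68, Tnni2 at -0.62 and Tnnc1 at -0.26. Only Tnnt1 had both arrays below both siScramble arrays, where 16.3% of all genes did. All 6 were lower on each of the 2 slides that held both groups, by -0.13 to -0.55 on BeadChip 1 and by -0.39 to -1.61 on BeadChip 2. The size rested on replicate 2 of siBAF60c. Without it the differences were -0.20 for Tnnt1, -0.23 for Tnnt3, 0.07 for Tnni1, -0.20 for Tnni2, 0.31 for Tnnc1 and -0.19 for Tnnc2, and without replicate 1 they were between -1.82 and -0.82.

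**Figure D4:**
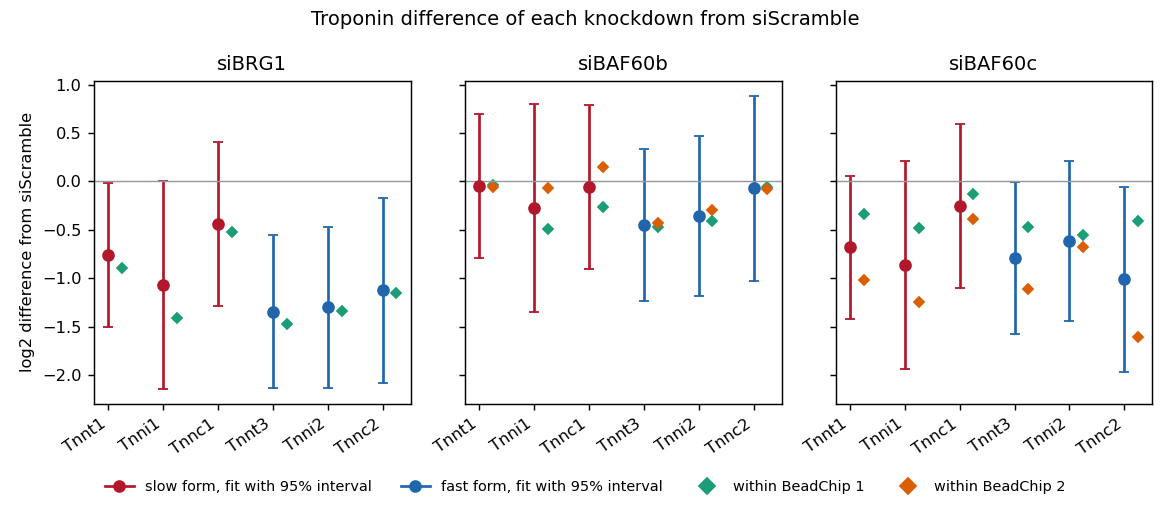
Log2 difference of each knockdown from siScramble (vertical axis) for the 6 troponin genes (horizontal axis), as the fitted value with its 95% interval (circles, slow forms red and fast forms blue) and as differences between arrays on the same BeadChip (diamonds). The siBRG1 circles lie between -0.44 and -1.34, the siBAF60b circles between -0.05 and -0.45, and the siBAF60c circles between -0.26 and -1.01.

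The knockdowns were also set against one another, in 3 pairs. All 6 troponin means were higher with siBAF60b than with siBRG1, by 0.38 for Tnnc1 to 1.05 for Tnnc2, while 52.6% of all genes were lower. Of the 6, 0 passed (0.058% of all genes were called higher). Unadjusted, 3 of the 6 had p under 0.05, beside 3.11% of all genes higher at that level. The arrays did not overlap for 5 of the 6, and 19.2% of all genes were higher without overlap. With siBAF60c the means were 0.08 to 0.68 above siBRG1, while 52.6% of all genes were lower. Of the 6, 0 passed or had an unadjusted p under 0.05 (0.087% of all genes were called higher, and 3.55% at an unadjusted p under 0.05). Median scaling turned the sign for Tnnt1, Tnni1, Tnnc1 and Tnnc2. Against siBAF60b all 6 siBAF60c means were lower, from -0.94 for Tnnc2 to -0.20 for Tnnc1, beside 50.5% of all genes. Again 0 of 6 passed the limma test or had an unadjusted p under 0.05 (0% of all genes were called lower, and 2.45% at an unadjusted p under 0.05). These differences rested on replicate 2 of siBAF60c: without it Tnnc2 differed by -0.12 and Tnnt1 by -0.16, the other 4 genes turned positive, and without replicate 1 Tnnc2 differed by -1.75 and Tnnt1 by -1.11. No knockdown pair differed by enough for the test to call a troponin gene, with intervals for Tnnc2 of 0.10 to 2.01, -0.84 to 1.07 and -1.89 to 0.02.

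Other genes of the contractile apparatus put the troponins in context. These lists were set with earlier results of these data known. Of 13 thin filament genes tested, 6 rose and 3 fell from GM to DM, with a median of 0.83. For this and the lists below, 10.5% of all genes were called higher and 8.93% lower. The largest rises were 7.69 for Actc1, the cardiac actin that embryonic skeletal muscle also makes, and 5.42 for Klhl41, a sarcomere assembly factor. The largest falls were -2.99 for Tpm3 and -1.20 for Tpm4, tropomyosins that are also made outside muscle. Probes of one tropomyosin gene disagreed: the 4 of Tpm3 gave -2.99, -0.74, -0.62 and 0.13, and the 3 of Tpm2 gave 0.45, 4.15 and 1.52. Of 7 genes of the fast fibre list, 6 rose and 0 fell (median 3.37), led by the fast calcium pump Atp2a1 at 6.05 and the fast alpha-actinin Actn3 at 4.64. Of 9 slow fibre genes, 7 rose and 1, Tpm3, fell (median 2.03). The oxygen carrier Mb rose by 5.39 and the Z-disc protein gene Csrp3 by 4.36. With DM replicate 1 left out, 8 thin filament genes rose and 3 fell, 6 fast genes rose, and 7 slow genes rose and 1 fell. With DM replicate 2 left out these were 7 and 2, 6, and 6 and 1. The Tpm3 difference was -4.33 without DM replicate 1 and -1.65 without DM replicate 2.

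The cardiac list was mixed. Its counts and those of the regulators stand beside 10.5% of all genes called higher and 8.93% called lower from GM to DM. Of 7 cardiac genes tested, 2 rose (Actc1 by 7.69 and the embryonic myosin light chain Myl4 by 2.62) and 1 fell (the stretch-responsive Ankrd1, -1.51), with a median of -0.03. The heart transcription factor genes Nkx2-5 and Tbx20 differed by -0.74 (adjusted p = 0.0854) and -0.03, and the cardiac myosin gene Myh6 by 0.26, and none passed. These genes were detected on 4, 2 and 3 arrays and Nppb on 6. The list median, which is the Tbx20 value, therefore rests on genes near background. Of 13 regulators of muscle and fibre type, 3 rose and 0 fell: Myog, the myogenic factor of terminal differentiation, by 6.67, the TEA domain factor gene Tead4 by 1.82 and the homeobox gene Six4 by 0.90. The list median was 0.36. The Six4 call was lost without either DM array (0.75, adjusted p = 0.104, and 1.05, adjusted p = 0.0574). Myod1, the factor of muscle commitment, differed by -0.48 from GM to DM and did not pass (adjusted p = 0.404). Its difference was -1.20 without DM replicate 1 and 0.24 without DM replicate 2, so no direction can be read. The gene is named after its values were seen. The median of the cardiac list was -0.23 without DM replicate 1 and 0.13 without DM replicate 2.

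In the 3 knockdowns 0 genes of these 5 lists passed against siScramble by limma. Few genes passed at all: 29 of 10346 with siBRG1, 1 with siBAF60b and 1 with siBAF60c. With siBRG1 the list medians were -0.37 for thin filament, -0.97 for fast, -0.73 for slow, -0.64 for cardiac and -0.26 for regulator genes. The largest differences were -1.37 for Acta1 (adjusted p = 0.143) and -1.25 for Klhl41 in the thin filament list, and -1.34 for Myl1 (adjusted p = 0.137) and -1.13 for Mylpf, both fast myosin light chains. Among slow genes they were -1.10 for the light chain gene Myl6b and -1.04 for Mb. Among cardiac genes they were -1.80 for the natriuretic peptide gene Nppb (adjusted p = 0.066) and -1.03 for Actc1, and among regulators -1.12 for Myog and -0.90 for Tead4. Nppb was detected on 6 of the 12 arrays, at a mean level of 5.70 near background, which limits its differences in all knockdowns. With siBAF60b the medians were -0.25, -0.31, -0.21, -0.30 and 0.08 in the same order of lists. The largest differences there were -0.64 for Lmod3 and -0.57 for Tmod1, -0.37 for Myl1 and -0.33 for Mylpf, -0.88 for Myoz2 and -0.70 for Mb, -1.44 for Nppb and -0.67 for Ankrd1, and 0.86 for Eya4 and 0.51 for Eya1. With siBAF60c the medians were -0.42, -0.64, -0.69, -0.19 and -0.18. The largest were -1.26 for Acta1 and -1.12 for Tmod1, -1.18 for Pvalb and -0.79 for Mylpf, -1.14 for Csrp3 and -0.95 for Myoz2, -0.86 for Myl4 and -0.78 for Actc1, and -0.81 for Tead4 and -0.78 for Myog. The Csrp3 probes disagreed here, at -1.14, -0.17 and 0.13. Myoz2, named for siBAF60b and siBAF60c, was detected on 3 of the 12 arrays, at a mean level of 5.14 near background.

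The troponin genes tracked one another over the 12 arrays, with Pearson correlations from 0.794 (Tnnt1 with Tnnc2) to 0.985 (Tnnt3 with Tnni2) in 15 pairs. Outside the family, the 3 genes with the highest correlation over the same arrays were taken for each troponin. Tnnt1 was closest to Myl6b (0.989), the sarcoplasmic reticulum gene Srl (0.984) and the nuclear pore gene Nup210 (0.979). Tnnt3 was closest to Myog (0.994), the calcium store gene Hrc (0.989) and the creatine kinase gene Ckm (0.988). For Tnni1 they were Trim72, a membrane repair gene (0.992), Ckm (0.988) and Myog (0.987), and for Tnni2 the creatine synthesis gene Gamt (0.987), the Notch target Heyl (0.986) and the fast light chain gene Myl1 (0.986). For Tnnc1 they were Atp2a1 (0.984), Mb (0.979) and Gprc5c (0.978), and for Tnnc2 Pgam2, the muscle phosphoglycerate mutase (0.992), Klhl41 (0.989) and Actc1 (0.982). All of these values come from the same 12 arrays in 6 groups, with GM the lowest group for each troponin, and they describe shape only.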

How the data were processed

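Expression was measured on 12 Illumina arrays, 2 for each of 6 groups taken from the sample titles. The deposited scanner table gives, per the file headers, 2 columns per array for 45281 probes: linear intensity and detection p-value. A second deposited table holds the intensity values processed by the authors for 23165 of those probes in the same rank order (Spearman correlation 1), and their software is not stated here. From the scanner table, intensities were background-corrected with neqc in limma 3.58.1 (R 4.3.3, offset 16, background from the detection p-values), quantile normalized and log2 transformed. A probe was kept if 2 or more arrays detected it (p under 0.05), genes were named from the platform annotation, in which 19589 of the authors' probes had 1 symbol, 8 several and 3568 none, and the probe with the highest mean stood for a gene. One limma model over all 12 arrays tested 10346 genes in 12 comparisons, with Benjamini-Hochberg adjustment over all genes and calls at an adjusted p under 0.05. Every adjusted p in the text comes from limma unless an exact test is named. The model was tested on simulated data. Where a group had no detected array, its level was taken as the lowest detected signal per array or the probe's own value, whichever was higher. This gives an "at least" fold for the offset of 16. The named genes were the troponins, the 3 genes best correlated with each, the siRNA targets and, per list, the 2 largest called rises and falls or, with 0 called, the 2 largest differences. The troponin genes and the gene lists were chosen with earlier results of these data known. Background correction, scaling, filters, probe choice, BeadChip, replicate number and single arrays were varied as alternatives. Whether replicate numbers pair the samples was not settled. Deviations of same-numbered samples correlated at -0.04 to 0.33 over all groups, above 0.1 in 9 of 15 pairs of groups, and at 0.119 to 0.328 in the 6 pairs among the 4 transfected groups, whose replicate 1 arrays also shared a BeadChip. The fit with the number as a block is given where it changed a call. The number of arrays limits the precision.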

Additional observations from a re-analysis of the deposited data

Results flagged for a closer look

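Tnnt1 was the troponin gene whose rise over GM differed between the scrambled control and untransfected DM cultures by a test of that difference. Its rise was 3.62 in DM and 2.17 in siScramble, a difference of -1.44 on the log2 scale (adjusted p = 0.0366, limma), with both siScramble arrays below both DM arrays. The call did not hold without DM replicate 2, where the difference was -1.03 (adjusted p = 0.213), or without either siScramble array. Tnnc1 passed as well when the BeadChip or the replicate number was a block (-1.81, -1.48 and -1.37).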

How the results depend on the processing

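Of 1212 recomputed values for single troponin genes, 1150 kept their direction and their side of the threshold, 38 changed sign, 20 lost a call and 4 gained one. All rises from GM to DM (96 of 96) and from GM to siBAF60b (102 of 102) stayed called. The count of troponin genes called between siScramble and DM was 1 and became 0 with median scaling, with array weights and with only the 2 groups fitted, 2 with BeadChip as a fixed or random block or with the replicate block (Tnnc1 added, -1.81, -1.48 and -1.37), and 0 to 1 with 1 array left out. The count for siBRG1 against siScramble was 0 and became 1 with the replicate block (Tnni2, -1.30, adjusted p = 0.0346), and it moved no count of troponin genes in the other 10 comparisons. Over all genes the replicate block moved the calls against GM from 2010 to 2216 (DM), 1268 to 1424 (siScramble), 735 to 864 (siBRG1), 1037 to 1186 (siBAF60b) and 1093 to 1253 (siBAF60c). It moved them from 352 to 445 for siScramble against DM and from 29 to 34 for siBRG1 against siScramble. Smaller moves were 1 to 3 (siBAF60b against siScramble), 9 to 16 (siBAF60b against siBRG1) and 0 to 3 (siBAF60c against siBAF60b).

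Median scaling moved the median of all genes to -0.48, -0.58, -0.28, -0.41 and -0.60 for DM, siScramble, siBRG1, siBAF60b and siBAF60c against GM. It left 199 higher and 1167 lower calls in DM against GM, where quantile normalization gave 1086 and 924, and 122 and 612 in siScramble against GM (652 and 616 by quantile normalization), 94 and 98 in siBRG1 (453 and 282), 120 and 254 in siBAF60b (564 and 473) and 102 and 465 in siBAF60c (589 and 504). Against these shifts Tnnt1 read 1.36 in siScramble (adjusted p = 0.0522), 0.95 in siBRG1 (0.331) and 0.57 in siBAF60c (0.365), and Tnnc1 1.77 (0.0611) in siBRG1 and 1.52 (0.0613) in siBAF60c. Without background correction Tnni1 in siBRG1 read 1.49 (adjusted p = 0.051). The sign turned with median scaling for siBAF60b against siScramble (Tnnt1 0.19, Tnnc1 0.16, Tnnc2 0.17, all-gene median 0.17) and for siBAF60c against siBRG1 (Tnnt1 -0.38, Tnni1 -0.23, Tnnc1 -0.25, Tnnc2 -0.35, all-gene median -0.33). It turned with the BeadChip as a fixed block for Tnnc2 in siScramble against DM (-0.21) and in siBAF60c against siBRG1 (-0.050). The cause was not tested.

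With 1 array left out the sign also turned for some uncalled differences, with these ranges. For siScramble against DM they were Tnni2 -0.50 to 0.20 and Tnnc2 -0.13 to 0.68. For siBAF60b against siScramble they were Tnnt1 -0.19 to 0.10, Tnni1 -0.84 to 0.28, Tnni2 -0.71 to 9.05e-05, Tnnc1 -0.49 to 0.37 and Tnnc2 -0.29 to 0.15. For siBAF60c against siScramble they were Tnnc1 -0.82 to 0.31 and Tnni1 -1.80 to 0.074. For siBAF60c against siBRG1 they were Tnni1 -0.73 to 1.14, Tnnc1 -0.38 to 0.74, Tnnc2 -0.70 to 0.93, Tnnt1 -0.40 to 0.55 and Tnnt3 -0.00704 to 1.11. For siBAF60c against siBAF60b they were Tnni2 -0.68 to 0.15, Tnnc1 -0.76 to 0.37, Tnnt3 -0.90 to 0.22 and Tnni1 -1.53 to 0.35. The alternatives without the 2 DM arrays and within a BeadChip, and those for the gene lists and for the fast minus slow differences, were chosen after seeing the data. Levels near background, as of Tnni1 and Tnnt3 in GM, limit those fold changes.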
